A study of Mus musculus with 2 samples.

Results

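The genes of miR-9, miR-92b and miR-124 were followed in small RNA from the embryonic mouse forebrain. They were taken by gene symbol as 7 of the 1973 miRNA gene rows of the deposited count tables: Mir92b, Mir9-3, Mir9-2, Mir124a-1, Mir124a-2, Mir124a-3 and the row of Gm25641. No row named Mir9-1 was used here. Gm25641 is annotated over the same bases of chromosome 3 on the other strand, so its opposite-strand counts were read as those of the Mir9-1 locus. The libraries were made from forebrain small RNA, with a labelled size range below 30 (taken as nucleotides), of B6NCrl mice at embryonic day 15.5, labelled healthy, with male and female embryos pooled and no treatment given. Replicate 1 pooled the forebrains of 78 embryos and replicate 2 those of 62 embryos. With 1 group of 2 libraries, no comparison between conditions was possible, and each test below compares these libraries only.

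A miRNA is cut from a hairpin precursor and loaded into an Argonaute protein, where bases 2 to 8, the seed, pair with target messenger RNAs and lower their output. In the developing cortex miR-9 is known for its high level in neural progenitors and young neurons, where it acts on regulators of progenitor identity. miR-124 is the classic neuronal miRNA, rising as progenitors leave the cell cycle and repressing non-neuronal messages. miR-92b belongs to the family of miR-25 and miR-92a, and in mouse cortex miR-92 is known to restrain Eomes (Tbr2), the transcription factor of intermediate progenitors.

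The Mir9 copies make the same mature RNAs, which bears on the Mir9 values below, because reads placed at more than 1 locus were kept in a row of their own and not in gene rows. RefSeq (GRCm38.p6) lists the same 2 mature sequences for Mir9-1, Mir9-2 and Mir9-3, given here 5′ to 3′ with the seed in capitals.
miR-9-5p: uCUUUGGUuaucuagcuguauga
miR-9-3p: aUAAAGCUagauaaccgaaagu
No mature miRNA of another name in the RefSeq table carried either seed. The copies could be told apart only by bases outside the arms, shown next for each arm with 6 bases on either side and with capitals where the 3 copies do not all have the same base.
Mir9-3, 5p arm: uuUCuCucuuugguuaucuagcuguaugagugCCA
Mir9-1, 5p arm: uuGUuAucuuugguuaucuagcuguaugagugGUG
Mir9-2, 5p arm: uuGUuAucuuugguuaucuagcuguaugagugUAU
Mir9-3, 3p arm: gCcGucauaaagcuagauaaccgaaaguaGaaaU
Mir9-1, 3p arm: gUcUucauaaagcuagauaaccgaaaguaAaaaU
Mir9-2, 3p arm: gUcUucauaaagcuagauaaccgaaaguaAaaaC
Mir9-3 differed from both other copies at the base directly before the 5p arm and at base 4 after it. Around the 3p arm Mir9-3 differed from both at base 3 before it and at base 2 after it. Mir9-1 and Mir9-2 resembled each other more closely: they shared runs of 33 bases around each arm, longer than the labelled size limit of 30. The runs that Mir9-3 shared with either were 26 bases around the 5p arm and 25 bases around the 3p arm. Of the 22-base windows of each hairpin, 13.0% for Mir9-3, 35.3% for Mir9-1 and 47.1% for Mir9-2 also occurred in another miRNA hairpin of the table. By number, Mir9-1 and Mir9-2 had 24 shared windows each, and their shares differed because the listed hairpins are 89 and 72 bases long. With 26-base windows the shares were 1.54% for Mir9-3, 25% for Mir9-1 and 34.0% for Mir9-2.

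Mir92b stood alone in sequence among the listed hairpins. None of its 62 windows of 22 bases occurred in another hairpin of the table. The rest of the genome was not searched. The Mir92b hairpin (GRCm38.p6, chr3:89227116-89227198, minus strand) is shown because no other listed hairpin shared a window with it, with both mature arms in capitals.
Mir92b hairpin: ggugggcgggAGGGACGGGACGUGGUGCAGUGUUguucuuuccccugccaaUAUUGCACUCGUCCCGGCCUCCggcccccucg
Its 3p arm shares a seed with the rest of its family, shown with the seed in capitals to set the common start beside the differing ends.
miR-92b-3p: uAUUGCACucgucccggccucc
miR-92a-3p: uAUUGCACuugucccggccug
miR-25-3p: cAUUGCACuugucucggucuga
miR-32-5p: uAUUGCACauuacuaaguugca
miR-363-3p: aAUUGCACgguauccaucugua
Against miR-92b-3p, counted from 1 at its 5′ end, miR-92a-3p had 2 differences, C10U and C21G, and matched 19 of 21 bases. miR-25-3p matched 16 of 22 bases, miR-32-5p 11 and miR-363-3p 10. The RefSeq table matched 4 of the 7 gene rows, and the Mir124a genes are named here without sequence.

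Replicate 1 held 4464927 counts and replicate 2 held 4753555 counts on the strand of a miRNA gene, of 11743597 and 13074292 reads. Levels are normalised counts (CPM), scaled so that these gene counts sum to 1000000 in a library, and are given as mean ± SD. Where a gene had 0 counts, its level could still reach 0.672 CPM (replicate 1) or 0.631 CPM (replicate 2), the value of 3 counts. No molecular identifiers are mentioned in the sources, so intervals and floors cover counting error alone. A gene counted as detected when neither library fell below 10 counts. All 7 brain marker miRNAs checked against the tissue label were detected and summed to 16449 and 15608 CPM. The 5 Hox-cluster markers of posterior body levels summed to 327 and 418 CPM, and the 3 erythroid markers to 140 and 165 CPM. Most of the Hox-cluster sum came from Mir10a (191 and 244 CPM) and Mir10b (109 and 145 CPM), while Mir196a-1 was at 0. Of 5 muscle markers 4 had rows, 3 of them (Mir1a-1, Mir133a-1 and Mir133a-2) at 0, and Mir206 stood at 20.6 and 4.84 CPM. The rows at 0 are numbered copies, and reads placed at more than 1 locus are not in gene rows. A 0 in such a row therefore does not show that the miRNA was absent. The liver marker Mir122 stood at 65.6 and 88.6 CPM, endothelial Mir126a at 15856 and 16377 CPM, and the 3 immune markers summed to 200.2 and 206 CPM. The part of these other cells in the values below was not tested. In bulk tissue, fewer cells of a type and less RNA per cell cannot be told apart.

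**Figure D1:**
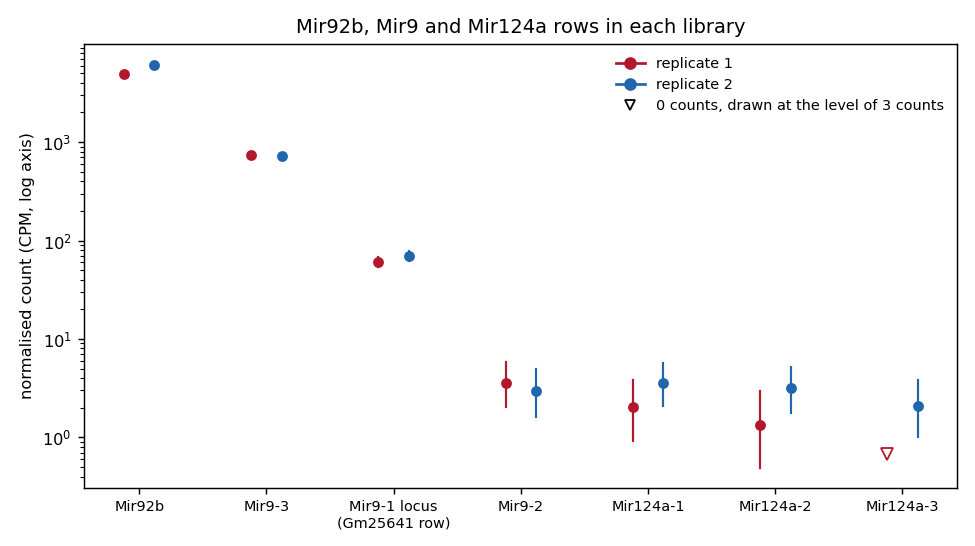
Normalised counts (CPM, log axis) of the 7 rows in replicate 1 (red) and replicate 2 (blue), with exact Poisson 95% intervals as bars. Mir92b, Mir9-3 and the Mir9-1 locus form separate steps of falling level, while Mir9-2 and the Mir124a rows lie together at the low end, with Mir124a-3 at 0 counts in replicate 1 (open triangle, drawn at the level of 3 counts).

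Mir92b was the most abundant of the 7 rows, with 22195 counts in replicate 1 and 29104 in replicate 2. These were 4971 and 6123 CPM, a mean of 5547 ± 814 CPM (SD, n = 2), rank 33 of all rows. Its level exceeded that of 91.1% of the 371 detected genes, whose median was 107 CPM. Mir92b (ENSMUSG00000076255) lies on chromosome 3 and overlapped no other gene of the GENCODE M21 annotation. Its reads came from 1 strand, with 1 opposite-strand count in replicate 1 and 0 in replicate 2.

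Within its seed family Mir92b held the larger part of the uniquely placed counts: 60.0% in replicate 1 (Clopper-Pearson 95% interval 59.5 to 60.5) and 59.0% in replicate 2 (58.6 to 59.5). Mir92-1, the Mir92a copy of the Mir17-92 cluster, followed at 2282 and 3029 CPM, and Mir25 of the Mir106b-25 cluster at 564 and 648 CPM. Mir32 stood at 193 and 230 CPM, and the X-linked neighbours Mir363 and Mir92-2 at 188 and 234 CPM and at 94.3 and 109 CPM. Mir92b was thus 9.15 times as high as Mir25 and 26.3 times as high as Mir32 by their means. The mature miR-92a-3p is the same from Mir92-1 and Mir92-2, so their rows can be too low while that of Mir92b has no such copy. Mir367, a further gene with this seed, had 0 and 2 counts.

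The Mir9 rows differed from each other far beyond the spread between libraries. Mir9-3 had 3338 counts in replicate 1 and 3411 in replicate 2, or 748 and 718 CPM, with a mean of 733 ± 21.2 CPM (SD, n = 2) and rank 93. The Mir9-1 locus had 271 and 330 counts, or 60.7 and 69.4 CPM, with a mean of 65.1 ± 6.17 CPM and rank 217. Mir9-2 had 16 and 14 counts, or 3.58 and 2.95 CPM, with a mean of 3.26 ± 0.451 CPM and rank 359. Each of these levels was apart from the next in both libraries, Mir9-3 being 11.3 times the Mir9-1 locus and 224 times Mir9-2 by the means.

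Of the counts in the Mir9 rows, Mir9-3 held 92.1% in replicate 1 (interval 91.2 to 92.9) and 90.8% in replicate 2 (89.9 to 91.7). The Mir9-1 locus held 7.48% (6.64 to 8.38) and 8.79% (7.90 to 9.74), and Mir9-2 held 0.441% (0.252 to 0.716) and 0.373% (0.204 to 0.625). Mir9-3, with the highest level, had the fewest shared 22-base windows, over only 3 copies. Mir9-1 and Mir9-2 had the same number, 24 each, so window sharing gave no order between them. Whether the order of levels reflects output of the loci or the placing of reads was not tested. The rows summed to 812 and 790 CPM, while the multi-mapping row held 5240531 and 5543873 reads, 44.6% and 42.4% of all reads. That row held 1446 reads in replicate 1 and 1476 reads in replicate 2 for each count in the Mir9 rows. For the Mir92b row the same figure was 236 in replicate 1 and 190 in replicate 2, and it is larger for any row with fewer counts. How many of the multi-mapping reads are miR-9 was not tested, so the total level of miR-9 in the tissue was not given by these rows.

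The Mir9 genes sit in noncoding hosts. Mir9-3 (ENSMUSG00000093238, mm10 chr7:79505264-79505353, plus strand) lies in an intron of Mir9-3hg, and Mir9-2 (ENSMUSG00000065424, chr13:83738814-83738885, plus strand) in an exon of C130071C03Rik. Mir9-1 (chr3:88215598-88215686, plus strand) lies inside Gm25641 (ENSMUSG00000092876, chr3:88215589-88215696, minus strand) and in an intron of Gm3764. In the same host, 332 bases from Gm25641, Mir3093 stood at 28.7 and 31.6 CPM, below the 60.7 and 69.4 CPM of the Mir9-1 locus.

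Gm25641 is itself annotated by RefSeq as a miRNA gene, with mature forms named miR-9b, shown here with bases 2 to 8 in capitals because they differ from the forms of Mir9-1 in their seeds.
miR-9b-5p: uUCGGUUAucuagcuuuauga
miR-9b-3p: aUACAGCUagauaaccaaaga
On the strand of miR-9b this row had 1 count in replicate 1 and 1 in replicate 2, against 271 and 330 on the strand of Mir9-1. The opposite-strand share of the row was thus 99.6% in replicate 1 (interval 98.0 to 99.99) and 99.7% in replicate 2 (98.3 to 99.99). RefSeq also places genes of this kind across from Mir9-2 and Mir9-3. The strand opposite to Mir9-2 had 0 counts in both libraries, and that opposite to Mir9-3 had 0 and 2 counts. At each Mir9 locus counts on the miR-9b strand thus stayed at or below 2. Each listed miR-9b form of Gm25641 is also listed for another gene, so such reads could sit in the multi-mapping row. These counts therefore do not give the level of miR-9b in the tissue. Of the 381 rows whose either-strand count was 10 or more in both, 11 (2.89%) had more opposite-strand than sense counts in both, Gm25641 among them.

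The Mir124a rows were close to the limit of counting. Mir124a-1 had 9 counts in replicate 1 and 17 in replicate 2, or 2.02 and 3.58 CPM (2.80 ± 1.10 CPM, SD, n = 2). Mir124a-2 had 6 and 15 counts, or 1.34 and 3.16 CPM (2.25 ± 1.28 CPM). Mir124a-3 had 0 and 10 counts, or 0 and 2.10 CPM (1.05 ± 1.49 CPM). All 3 were lower in replicate 1, and only their replicate 2 counts exceeded 9. They summed to 15 and 42 counts, or 3.36 and 8.84 CPM.

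The order of the Mir124a rows and of Mir9-2 was not resolved. The means of Mir9-2, Mir124a-1, Mir124a-2 and Mir124a-3 each differed from the next by less than the larger SD of the pair, and each pair overlapped between libraries. The copies give the same mature miR-124, so its reads could sit in the multi-mapping row. That row held 349369 reads in replicate 1 and 131997 reads in replicate 2 for each count in the Mir124a rows. These figures are large because the counts are low, and how many such reads are miR-124 was not tested. Since miR-124 reads could sit in that row, the low counts do not give the level of miR-124 in the tissue.

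Mir124a-1 and Mir124a-2 also have noncoding hosts. Mir124a-1 (ENSMUSG00000065597, mm10 chr14:64590657-64590741, plus strand) lies in an exon of Mir124a-1hg. Mir124a-2 (ENSMUSG00000093073, chr3:17795662-17795770, plus strand) lies in part in an exon of Mir124-2hg. Mir124a-3 (ENSMUSG00000065454, chr2:180894040-180894107, plus strand) overlapped Gm27032 only at its end. Mir3078, 444 bases from Mir124a-1 in the same host, stood at 13.7 and 14.3 CPM, above the 2.02 and 3.58 CPM of Mir124a-1 in both libraries. Opposite-strand counts at Mir124a-3 numbered 6 in replicate 1 and 6 in replicate 2, beside its 0 and 10 sense counts.

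**Figure D2:**
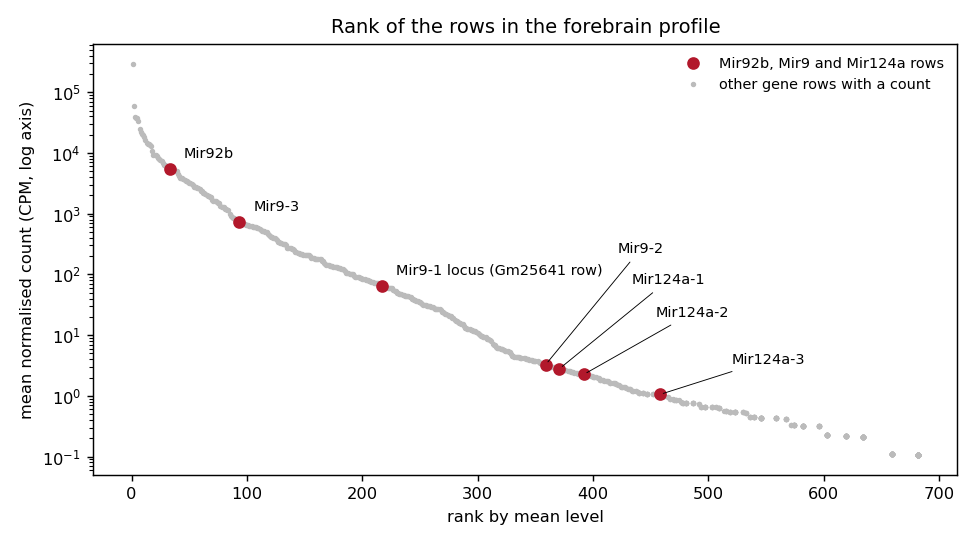
Mean normalised count (CPM, log axis) of every row with a count, ordered by rank, with the 7 rows in red and the others in grey. Mir92b at rank 33 and Mir9-3 at rank 93 lie in the upper part of the profile, while Mir9-2 at rank 359 and Mir124a-1 at rank 371 lie near the middle of the 724 rows with a count.

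Other neuronal miRNA genes did not share the low level of Mir9-2 and the Mir124a rows. All 8 duplicated neuronal genes listed were detected, from 11.7 CPM for Mir218-1 to 2002 CPM for Mir128-1, with a median of 284 CPM. Among them only Mir129-1, at a mean of 63.0 CPM, was found to have every mature sequence listed for another gene, as Mir9-2 does. The list is thus not matched to Mir9-2 in sequence sharing. All 6 single-locus neuronal genes were detected, from 31.0 CPM for Mir212 to 19413 CPM for Mir149, with a median of 2987 CPM. Mir137, a single-locus gene known to shape neuronal maturation, stood at 9747 and 8437 CPM, against which Mir9-3 was lower in both libraries. Mir9-3 shares its mature sequences with the other Mir9 copies, so its row can be too low for this comparison. Of the 7 rows, 4 were detected (Mir92b, Mir9-3, the Mir9-1 locus and Mir9-2), and the Mir124a rows were not.

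Sequence sharing was set beside level over all 916 rows with a mature sequence in the RefSeq table. Of the 34 rows whose every mature sequence is also listed for another gene, 9 were detected (26.5%), with a median of 63.0 CPM among those detected. Mir9-3 was the highest of the 34, the Gm25641 row, classed by its listed miR-9b forms but with the Mir9-1 counts, was number 4 and Mir9-2 was number 8. Of the 829 rows with no shared mature sequence, 291 were detected (35.1%), with a median of 121 CPM among those detected. Of the 53 rows with some but not every mature sequence shared, 36 were detected (67.9%), with a median of 211 CPM among those detected. The classes are described without a test, and the Mir124a rows are in none of them.

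**Figure D3:**
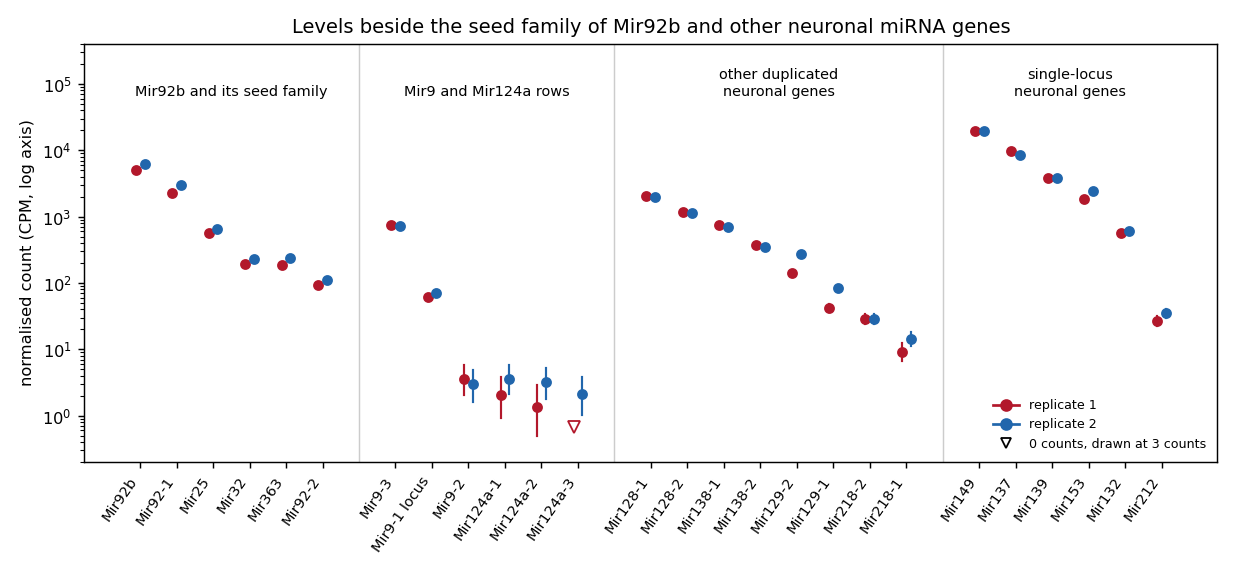
Normalised counts (CPM, log axis) in replicate 1 (red) and replicate 2 (blue) of Mir92b and its seed family, the Mir9 and Mir124a rows, and the duplicated and single-locus neuronal genes listed, with exact Poisson 95% intervals and 0 counts as an open triangle at the level of 3 counts. Mir92b lies above its family in both libraries, and Mir9-2 and the Mir124a rows lie below every listed neuronal gene, the lowest of which, Mir218-1, averaged 11.7 CPM.

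The genes nearest in level over the 2 libraries, by distance on the log2(CPM + 1) scale among detected genes, belonged to other families. Mir125a, at 4703 and 6070 CPM, was nearest to Mir92b (distance 0.081). Mir138-1, at 744 and 708 CPM, was nearest to Mir9-3 (distance 0.021). Mir200c, at 62.9 and 72.6 CPM, was nearest to the Mir9-1 locus (distance 0.082), and Mir6979, at 3.81 and 3.16 CPM, to Mir9-2 (distance 0.10). With 2 libraries such nearness describes level only.

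Between the libraries, Mir92b was lower in replicate 1, with 4971 CPM against 6123 CPM in replicate 2. The log2 ratio of replicate 1 over replicate 2 was -0.30 (exact binomial test, Benjamini-Hochberg adjusted p = 2.47e-120 over 458 genes). This difference exceeded counting error. Its coefficient of variation of 14.7% lay below the common 16.0% that edgeR gave over all tested genes. That common value came from these same libraries, with TMM scaling and counting error set apart, so the 2 values are unlike measures. Whether the difference exceeds the usual spread between libraries was not tested. Over all 458 genes 36.2% were called in either direction, and 19.2% were called lower in replicate 1. Of the detected genes 69.0% had a smaller absolute ratio. With TMM scaling the ratio of Mir92b was -0.26, with DESeq2 size factors -0.27 and with the most abundant gene left out of the total -0.36.

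The other genes of the Mir92b seed family had ratios of the same sign, under every scaling run. Of the 5, 4 were called lower in replicate 1, namely Mir92-1 (-0.41), Mir363 (-0.31), Mir32 (-0.26) and Mir25 (-0.20), with adjusted p-values of at most 0.000431 by the exact binomial test. Mir92-2 had a ratio of -0.21 and was not called (adjusted p = 0.0799, exact binomial test). With the most abundant gene left out of the total Mir92-2 was called as well. The median log2 ratio of the detected genes was -0.046, and 19.2% of the 458 genes tested were called lower in replicate 1. The coefficients of variation of Mir363 (15.1%), Mir32 (12.5%) and Mir25 (9.85%) lay below the common 16.0% between libraries. That of Mir92-1 (19.9%) lay above it. Mir363 and Mir92-2 are neighbours on the X chromosome, so the 5 genes are not 5 independent loci.

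The Mir9 rows were not called. The log2 ratios of replicate 1 over replicate 2 were 0.059 for Mir9-3 (adjusted p = 0.199, exact binomial test), -0.19 for the Mir9-1 locus (0.214) and 0.28 for Mir9-2 (0.851). The call of Mir9-3 depended on scaling: it was called higher in replicate 1 with TMM (0.099, exact binomial adjusted p = 0.0145) and DESeq2 size factors (0.088, exact binomial adjusted p = 0.0346). With the most abundant gene left out of the total its ratio was -0.00052.

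Among the Mir124a rows, Mir124a-3 was called, with 0 counts in replicate 1 against 10 in replicate 2 (adjusted p = 0.00708, exact binomial test). Its exact Poisson interval reached up to 0.826 CPM in replicate 1 and ran from 1.01 to 3.87 CPM in replicate 2, so the intervals did not overlap, and no fold is given. Mir124a-1 had a log2 ratio of -0.79 (adjusted p = 0.311, exact binomial test) and Mir124a-2 one of -1.16 (adjusted p = 0.183, exact binomial test). Their intervals in the 2 libraries overlapped, from 0.922 to 3.83 CPM and from 2.08 to 5.73 CPM for Mir124a-1. In all, 2 of the 7 rows were called, both lower in replicate 1, beside the 36.2% called over all genes and the 19.2% called lower.

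**Figure D4:**
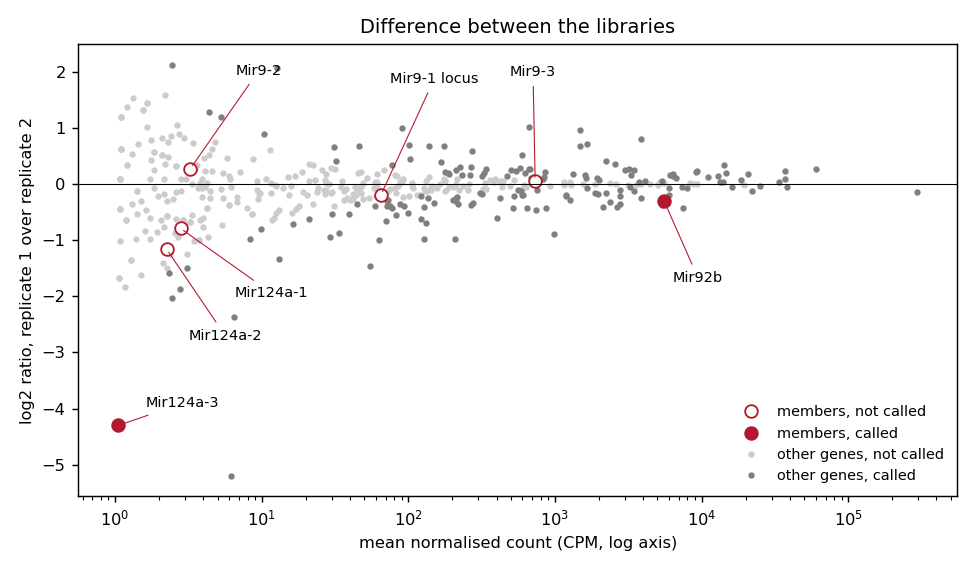
Log2 ratio of replicate 1 over replicate 2 (0.5 counts added to each) against mean normalised count (CPM, log axis) for the 458 genes tested, with the 7 rows in red, filled where called, and other genes in dark grey where called and light grey where not. Mir92b lies at -0.30, Mir9-3 at 0.059, the Mir9-1 locus at -0.19 and Mir9-2 at 0.28, and the drawn value of Mir124a-3 rests on 0 counts in replicate 1 and the added 0.5 counts.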

How the data were processed

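The deposited values were raw counts of reads for each miRNA gene, in 2 libraries of embryonic mouse forebrain. Per the deposited README text they derive from mm10 alignments and an annotation named M4. Aligner and counter: not given in the sources used here. Without a header in the tables, columns were identified from their values: they hold counts on either strand, a strand column taken as sense because it holds nearly all counts, and the opposite strand, which added up in every row. Totals leave out the 4 rows for unmapped, multi-mapping, unassigned and ambiguous reads; of all reads, 44.6% and 42.4% were multi-mapping and 14.3% and 18.2% unmapped. Nothing says whether the pools shared a litter or library batch, so the spread between them may be technical.

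Symbols and places came from GENCODE M21 on the same build by identifier (1894 of 1973 rows matched), sequences from RefSeq GRCm38.p6. Mir92-1 and Mir92-2 are the Mir92a genes of the lists. CPM is the count over the sum of sense gene counts. Genes with at least 10 counts in total were tested by a two-sided exact binomial test against the libraries' shares of counts (scipy 1.17.1), Benjamini-Hochberg adjusted at 0.05 over all of them, after trial on simulated data. The simulated counts held counting error only, so the trial did not cover the spread between libraries. edgeR 4.0.16 gave TMM factors and the common spread, and DESeq2 1.42.0 size factors. Windows were matched on both strands, leaving out genes annotated at the same place. Named genes were the 7 rows, the seed family, the neuronal and marker lists and the gene nearest in level to each detected row; Mir367, Mir3093 and Mir3078 (the rows within 10 kb) were added later. The rows and lists were chosen with earlier results of these data known.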

Additional observations from a re-analysis of the deposited data

Results flagged for a closer look

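Counts on the strand opposite to Mir124a-3 lie outside the levels compared above and exceeded the floor of 3 counts. They numbered 6 in replicate 1 and 6 in replicate 2, or 1.34 and 1.26 CPM. They were all of the row's counts in replicate 1 (Clopper-Pearson 95% interval 54.1 to 100%) and 37.5% in replicate 2 (15.2 to 64.6%). At least 3 opposite-strand counts in each library were found in 24 of the 421 rows (5.70%) whose either-strand count was 6 or more in both. The other Mir124a and Mir9 rows and Mir92b had at most 2 counts on the strand not read as theirs.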

How the results depend on the processing

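Leaving the most abundant gene out of the total put the summed Mir9 rows at 1139 CPM and Mir92b at 7908 CPM, by construction, against 801 and 5547 CPM. Without the Gm25641 row the Mir9 rows summed to 736 CPM. Across single libraries the Mir9 sum ranged from 790 to 812 CPM, Mir92b from 4971 to 6123 CPM, the Mir124a sum from 3.36 to 8.84 CPM and the share held by all 7 rows from 0.579% to 0.692%. Detected genes numbered 592 with at least 1 count in each library. The number of genes differing between libraries was 166, and 156 to 181 under the alternatives, but the share higher in replicate 1 was 47.0%, against 57.1% with TMM, 53.6% with DESeq2 size factors and 30.9% without the most abundant gene, where the median log2 ratio of detected genes was -0.11. Among the called rows, Mir92b and Mir124a-3 kept their direction and call under every scaling run. With 0 to 17 counts in a library, an order among the Mir124a rows was not detectable at this depth. No paired analysis was possible because the design held 1 group.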
